A study of Mus musculus with 16 samples.

Results

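The genes of non-collagen matrix proteins and matrix crosslinkers were followed in the liver and kidney of ageing mice. These were 41 genes, taken by symbol from a fixed list of matrix proteins, out of the 32989 genes in the tables, and where a symbol occurred more than once the entry with the higher mean level was used. This concerned Loxl2, whose other entry is an antisense transcript on chromosome 14. By role they were 7 small leucine-rich proteoglycans, 10 proteins of elastic fibres and microfibrils, 4 latent TGF-beta binding proteins, 4 adhesive glycoproteins, 6 matricellular proteins, 4 basement membrane proteins and 6 crosslinkers and fibril assembly proteins. The mice were male C57BL/6J animals aged 97 weeks. The 4 LD-conditioned mice (L63, L65, L86 and L104) had lived under an unshifted cycle with light from 8 to 20 h. The light of the 4 ADV-conditioned mice (A75, A91, A94 and A115) was advanced by 8 h every 4 days for 85 weeks, a model of chronic jet lag. Poly(A) RNA of both organs was sequenced, which gave 16 libraries, 1 per organ and mouse, with liver and kidney sharing the mouse number.

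The extracellular matrix is built by collagens together with glycoproteins and proteoglycans that set fibril width, elasticity and cell adhesion. Small leucine-rich proteoglycans bind to collagen fibrils and regulate their diameter, elastin is laid down on fibrillin microfibrils, and lysyl oxidases join collagen and elastin chains covalently. Latent TGF-beta binding proteins keep TGF-beta stored in the matrix. Matricellular proteins signal to cells rather than bear load, and several of them are known from scarring tissue. In the liver, stellate cells and portal fibroblasts are the main sources of scar matrix, whereas hepatocytes secrete the plasma glycoproteins vitronectin and fibronectin.

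The livers held between 21092501 and 24285055 fragments on genes and the kidneys between 15688495 and 18043306. FPKM are fragments per kilobase of exon, scaled to the library total, and 1 fragment on a transcript of 1 kb gave 0.0380 to 0.0440 FPKM in the livers and 0.0508 to 0.0584 in the kidneys. The organ labels were checked with markers fixed in a list: the 6 hepatocyte markers summed to between 52342 and 65255 FPKM in the livers and to between 109 and 240.3 in the kidneys, and the 6 proximal tubule markers to between 18378 and 46278 in the kidneys and to at most 0.119 in the livers. The libraries that stood apart were 1 liver and 1 kidney. The A94 liver had a mean correlation of 0.941 with the other livers, against 0.977 to 0.982 for the rest. The A115 kidney had a mean correlation of 0.858, against 0.932 to 0.964, and 33.8% of its fragments were mitochondrial. The other ADV kidneys had 9.43% to 13.1% and the LD kidneys 15.7% to 18.02%, so that this share also separated A75, A91 and A94 from the LD kidneys, and its part in the kidney results was not tested. For the members as a whole, counts at a test threshold and medians of the ADV comparisons are given with and without the A94 liver or the A115 kidney. All 41 genes were found in both organs, on the mm10 build. Levels are in FPKM, and differences are on the log2(FPKM + 0.1) scale, which understates changes of low genes. In bulk tissue, fewer cells of a type and less RNA per cell cannot be told apart.

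Most of these genes were more highly expressed in the kidney. In the comparison of kidney with liver over all 16 libraries (limma, Benjamini-Hochberg adjusted p under 0.05), 29 of the 41 were higher in the kidney, where 61.5% of the 14379 genes tested were higher. In the kidney 6 were lower (Lum, Dcn, Prelp, Fn1, Vtn and Postn), against 13.1% of all genes. The remaining 6 (Fbln2, Emilin1, Ltbp4, Ecm1, Tnxb and Dpt) did not pass. Of the 41, 35 were thus called, and 39 were called without A115 and 35 without A94. The shares of the members, 70.7% higher and 14.6% lower, were thus not far from those of all genes.

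Wide organ differences were found for the liver plasma proteins, matrix Gla protein and thrombospondin-1. Vtn (chr11:78499120-78502325, plus strand), which encodes vitronectin, had 1158 ± 150 FPKM (SD, n = 8) in the liver and 0.115 ± 0.0933 in the kidney, where it was listed at 0 in L63 and A115. The log2 difference was −12.52 (SE 0.26, adjusted p = 1.31e-15). Fn1 (chr1:71585473-71653234, minus strand), the gene of fibronectin, had 133 ± 23.0 FPKM in the liver and 5.05 ± 3.48 in the kidney, a log2 difference of −4.92 (SE 0.27, adjusted p = 2.40e-10). Both plasma glycoproteins were mainly liver transcripts in these mice, and the 8 livers lay above all 8 kidneys. Mgp (chr6:136872435-136875805, minus strand), whose product inhibits calcification of vessels and cartilage, had the opposite pattern with 3.57 ± 2.95 FPKM in the liver and 379 ± 264 in the kidney, a log2 difference of 6.80 (SE 0.36, adjusted p = 1.46e-10).

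By role group, the proteoglycans, adhesive glycoproteins and matricellular proteins held members called in each direction, and differences between the groups were not tested. Among the proteoglycans, decorin (Dcn) was higher in the liver (145 ± 39.4 against 44.2 ± 15.9 FPKM, log2 difference −1.74, SE 0.16, adjusted p = 9.15e-08), as were Lum (−1.51) and Prelp (−0.87), whereas Bgn (1.13), Fmod (1.36), Ogn (3.35) and Aspn (3.33) were higher in the kidney. All 4 basement membrane genes were higher in the kidney, with log2 differences from 1.42 (Hspg2, perlecan) to 2.07 (Agrn, agrin). Of the 10 elastic fibre genes 8 were higher in the kidney, led by Fbln5, which is needed for elastic fibre assembly, with 0.824 ± 0.493 FPKM in the liver and 20.3 ± 4.32 in the kidney (4.55, SE 0.20, adjusted p = 1.14e-11). Thbs1, an activator of latent TGF-beta, was likewise high in the kidney (14.0 ± 3.34 FPKM) and low in the liver (0.838 ± 1.68), a log2 difference of 4.95 (SE 0.43, adjusted p = 5.14e-08). In 12 of the 41 genes the 8 livers and 8 kidneys did not overlap, 9 of them higher in the kidney (22% against 34.8% of all genes) and 3 (Dcn, Fn1 and Vtn) higher in the liver (7.32% against 8.57%), so that the members were not apart more often than other genes. Taking the mouse as a block gave the same calls for all 41.

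**Figure D1:**
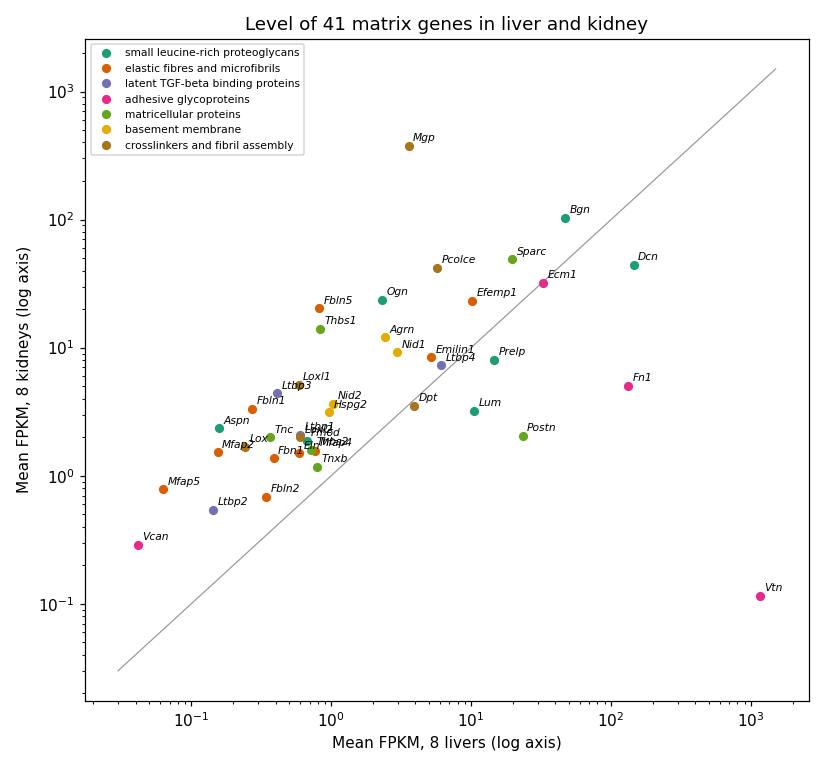
Mean FPKM of each of the 41 genes over 8 livers (horizontal, log axis) and 8 kidneys (vertical, log axis), coloured by role, with the line of equal levels. Vtn at 1158 and 0.115 FPKM and Mgp at 3.57 and 379 FPKM lie farthest from the line on its liver and kidney sides.

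In the liver, most of these genes had higher means in the ADV-conditioned mice, and no single gene passed the adjusted test. Of the 41 genes 38 could be tested, and Aspn, Mfap2 and Mfap5 lay under the minimum level (a mean of 0.5 on the exons after scaling to library total). None of the 38 had an adjusted p under 0.05 (limma; limma-voom on the recovered fragments gave none either), where 0.00779% of all genes did, namely 1 of 12835, the collagen gene Col27a1. At an unadjusted p under 0.05, 11 of the 38 were higher in ADV (Lum, Dcn, Prelp, Eln, Fbn1, Fbln2, Mfap4, Ltbp2, Thbs1, Nid2 and Mgp), or 28.9% against 8.65% of all genes, and none was lower, against 3.13%. In 10 of the 38 every ADV liver lay above every LD liver (Dcn, Prelp, Eln, Fbln2, Fbln5, Ltbp2, Vcan, Postn, Thbs1 and Tnc), or 26.3% against 6.94% of all genes, and in none did every ADV liver lie below, against 1.89%. The log2 fold change was above 0 in 34 of the 38, and in 8439 of all 12835 genes tested. The median log2 fold change of the 38 was 0.67, and that of all genes tested was 0.10. Of the 38, 4 (Mfap4, Ltbp2, Vcan and Lox) reached the minimum only through the ADV livers. The other 34 held 9 genes at an unadjusted p under 0.05, 8 with groups apart and a median of 0.65. The share of all genes under this narrower filter was not computed.

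The 4 ADV livers differed among themselves. A94 was the highest of the 8 livers in 35 of the 38 genes tested (92.1%), against 49.7% of all genes. Over all 41 genes A94 lay above every LD liver in 38, A75 in 34, A115 in 32 and A91 in 11, where the shares of all genes were 59.9%, 26.8%, 37.8% and 24.2%. In A91, 10 of the 41 lay below every LD liver (24.4% against 23.5% of all genes), and both of its shares were near those of all genes. The median log2 difference of the 41 genes from the LD mean was 1.85 in A94, 0.51 in A75, 0.58 in A115 and −0.02 in A91. The summed level of the 41 genes without Vtn and Fn1 was between 240.1 and 258 FPKM in the LD livers, and was 281 in A91, 346 in A115, 351 in A75 and 787 in A94. The sum of A91 was above the LD range through Dcn: without Dcn as well it was 134 in A91, inside the LD range of 128 to 149, and 168.5 in A75, 178 in A115 and 575 in A94.

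**Figure D2:**
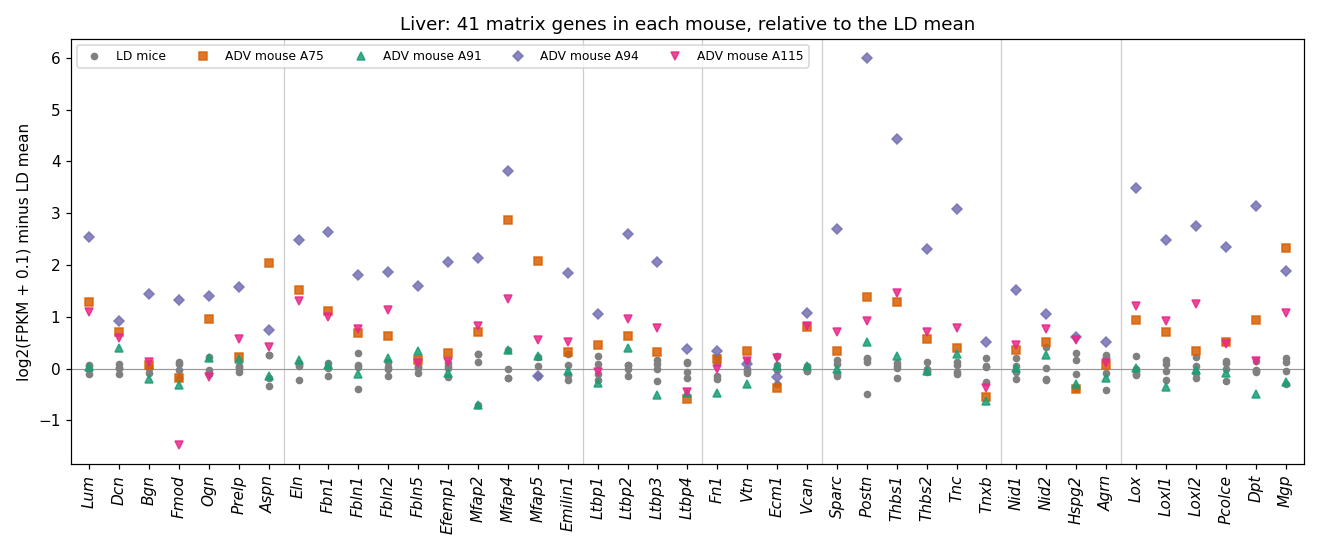
Level of each gene in the 8 livers as log2(FPKM + 0.1) minus the mean of the 4 LD livers, with grey points for LD mice, coloured symbols for the 4 ADV mice and vertical lines between role groups. A94 (diamonds) is the highest liver in 36 of the 41 genes, and A91 (upward triangles) stays close to the LD points.

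Markers of several other cell types moved with these genes, whereas those of endothelium were not raised in A94. The 7 endothelium markers summed to 67.5 FPKM in A94 and 69.15 in A91, inside the LD range of 65.0 to 69.6. They summed to 76.8 in A75 and 94.3 in A115. The 7 fibroblast markers summed to 87.3 FPKM in the A94 liver, to 11.0 in A75, 11.5 in A115 and 4.49 in A91, and to between 4.29 and 4.59 in the LD livers. The 8 leukocyte markers summed to 98.7 in A94, to 17.1 to 18.2 in the other ADV livers and to 12.01 to 15.5 in the LD livers. The 8 stellate cell markers summed to 86.4 in A94, to 49.1 to 53.2 in the other ADV livers and to 40.9 to 45.9 in the LD livers. In both sums every ADV liver, A91 included, lay above every LD liver. A75 instead had the highest smooth muscle sum (34.2, against 8.41 to 9.92 in the LD livers and 30.2 in A94) and the highest mesothelium sum (19.1, against 2.91 to 4.32 in the LD livers and 4.96 in A94). A115 was also above the LD livers in both, with 15.98 for smooth muscle and 11.9 for mesothelium. Of the mesothelium sum in A75, 14.2 FPKM came from Krt19, which bile ducts also express. The 6 adipocyte markers summed to 70.1 in A94, to 26.2 to 29.8 in the other ADV livers and to 15.9 to 24.2 in the LD livers, also without overlap. In A94, 4 of these 6 (Adipoq, Plin1, Lep and Retn, the defining ones) were at 0 and Fabp4, which endothelium and macrophages also express, made up 64.7 FPKM of the sum. In A75 none of these 6 was at 0. None of the 6 skeletal muscle markers was at 0 in A75 either, whereas 4 or 5 of them were in each other liver. The skeletal muscle sum was 0.671 in A75, inside the LD range of 0.394 to 0.763. No marker of the fibroblast, leukocyte, stellate cell, smooth muscle and mesothelium lists was at 0 in A94 or A75. The fibroblast list includes the matrix genes Col1a1 and Col3a1, at up to 11.4 and 67.0 FPKM in the ADV livers. These 2 collagen genes made up most of the fibroblast sum in A94. Their part in the results was not tested.

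Without A94 the log2 fold change was above 0 in 28 of the 35 genes tested, at a smaller size, and in 6792 of all 12553 genes. Of these 35, 11 were higher at an unadjusted p under 0.05 (31.4% against 8.8% of all genes), among them Postn and Tnc, and 2 were lower (Ltbp4 and Tnxb, against 5.66% of all genes). Mgp no longer passed at this level, and Ltbp2, Vcan and Lox fell under the minimum and were not tested. None passed the adjusted test. The log2 fold change of Efemp1 went from 0.60 to 0.11, of Fbln5 from 0.55 to 0.20, of Pcolce from 0.81 to 0.30, of Tnc from 1.13 to 0.48 and of Nid1 from 0.59 to 0.27. It also shrank by over 1.5 times for Prelp (to 0.33), Thbs1 (to 0.99), Fbn1 (to 0.72) and Lum (to 0.80), whereas Dcn (0.56), Eln (0.996), Nid2 (0.51) and Mgp (1.04) moved less. The median log2 fold change of the members was then 0.33, and that of all genes 0.02.

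Among the proteoglycans, decorin gave the smallest p of the 38 genes tested. Dcn (chr10:97479500-97518163, plus strand), whose product binds collagen fibrils and TGF-beta, had 112, 119.5, 113 and 103.6 FPKM in the livers of L63, L65, L86 and L104 and 182, 147, 212 and 168 in A75, A91, A94 and A115. All 4 ADV livers lay above the LD livers, A91 included. The log2 fold change was 0.65 (SE 0.12, limma adjusted p = 0.234), and the exact two-sided permutation p was 0.0286, the smallest that 4 against 4 mice allow. Lum (chr10:97565501-97572703, plus strand), the gene of lumican, which the study names, had 5.58, 5.71, 5.01 and 5.43 FPKM in the LD livers and 13.3, 5.53, 32.2 and 11.8 in A75, A91, A94 and A115. Of the ADV livers 3 were at 2.16 to 5.93 times the LD mean, with A91 inside the LD range. The log2 fold change was 1.24 (SE 0.42, adjusted p = 0.362, exact permutation p = 0.0857). The study, which tested counts with DESeq2, reported Lum among fibrosis-associated genes that were upregulated in the ADV livers. That test was not run here. Prelp, which anchors basement membranes to the matrix, had 10.2, 10.6, 11.1 and 11.2 FPKM in LD and 12.6, 12.3, 32.2 and 16.03 in ADV, with a log2 fold change of 0.64 (SE 0.27, adjusted p = 0.412). Biglycan (Bgn) was at 105 FPKM in A94 and between 33.8 and 42.0 in the other 7 livers. Fibromodulin (Fmod) had its highest value in A94 (1.69) and its lowest in A115 (0.159), and osteoglycin (Ogn) was highest in A94 (4.69) and A75 (3.42), against 1.52 to 2.01 elsewhere. Asporin (Aspn), under the minimum, was highest in A75 (0.601).

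Of the elastic fibre genes all 8 tested had a log2 fold change above 0 (8439 of 12835 genes did), 4 of them at an unadjusted p under 0.05. Eln (chr5:134702595-134747323, minus strand), the elastin gene, had 0.193, 0.271, 0.259 and 0.257 FPKM in the LD livers and 0.885, 0.283, 1.82 and 0.752 in A75, A91, A94 and A115. The groups did not overlap, although A91 was only just above L65, and the log2 fold change was 1.37 (SE 0.42, adjusted p = 0.326). Fbn1, the gene of fibrillin-1, had 0.129 to 0.171 FPKM in LD and 0.443, 0.165, 1.47 and 0.403 in ADV (1.20, SE 0.46, adjusted p = 0.385). Mfap4, a microfibril glycoprotein, had 0.108 to 0.202 FPKM in LD and 1.62, 0.201, 3.22 and 0.501 in ADV (2.10, SE 0.65, adjusted p = 0.326). In both genes A91 fell within the LD range. Fbln2 had 0.156 to 0.209 FPKM in LD and 0.335, 0.223, 0.922 and 0.522 in ADV (0.95, SE 0.34, adjusted p = 0.367), and Fbln5 had 0.566 to 0.629 in LD and 0.690, 0.794, 2.03 and 0.656 in ADV (0.55, SE 0.32, adjusted p = 0.488), and neither overlapped. Efemp1, the most abundant of the group in the liver, had 6.31 to 7.61 FPKM in LD and 8.79, 6.72, 29.8 and 7.72 in ADV (0.60, SE 0.40, adjusted p = 0.536). Fbln1 and Emilin1 had log2 fold changes of 0.79 and 0.66, and of 0.45 and 0.26 without A94. Mfap2 was at 0.610 FPKM in A94 and at most 0.186 elsewhere, and Mfap5 was at 0.365 in A75 and at 0 in A94.

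The latent TGF-beta binding proteins split. Ltbp2 had 0.0187 to 0.0373 FPKM in the LD livers and 0.101, 0.0724, 0.693 and 0.154 in A75, A91, A94 and A115. These values did not overlap, at a level of under 1 FPKM in every mouse, and the log2 fold change was 1.15 (SE 0.46, adjusted p = 0.391). Ltbp4, the most abundant, ran the other way with 5.81, 6.32, 7.08 and 7.24 FPKM in LD and 4.35, 4.74, 8.63 and 4.79 in ADV (−0.28, SE 0.21, adjusted p = 0.563). In 3 ADV livers it lay below all LD livers and in A94 above them, and without A94 the log2 fold change was −0.50. Ltbp3 (0.66) and Ltbp1 (0.29) had A94 as the highest liver, and without A94 their log2 fold changes were 0.20 and 0.03.

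The abundant adhesive glycoproteins did not differ beyond the spread between mice. Vtn had 1084, 1054, 1235 and 1122 FPKM in LD and 1412, 914, 1197 and 1249 in ADV, with a log2 fold change of 0.07 (SE 0.15, adjusted p = 0.852) whose sign turned when the libraries were scaled by the median ratio. Fn1 (0.01, SE 0.18) and Ecm1 (−0.07, SE 0.15) had similar errors. Versican (Vcan), a large proteoglycan of provisional matrix, was nearly absent in LD with 0.00327 to 0.00987 FPKM, and had 0.0860, 0.0104, 0.124 and 0.0868 in A75, A91, A94 and A115. The groups did not overlap, but A91 exceeded L63 by less than the value of 1 fragment, and the log2 fold change was 0.69 (SE 0.31, adjusted p = 0.424).

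The matricellular genes held the most extreme value of a single mouse. Postn (chr3:54361107-54391041, plus strand), the gene of periostin, which promotes collagen crosslinking and is made by activated fibroblasts, had 1.70, 2.66, 2.83 and 2.78 FPKM in the LD livers and 6.55, 3.54, 161.7 and 4.71 in A75, A91, A94 and A115. The A94 liver was 65.0 times the LD mean, and the other ADV livers 1.42 to 2.63 times. The log2 fold change was 2.21 (SE 1.03, adjusted p = 0.439) and without A94 it was 0.94 (adjusted p = 0.172). Thbs1 had 0.108 to 0.154 FPKM in LD and 0.473, 0.178, 4.96 and 0.544 in ADV (1.85, SE 0.74, adjusted p = 0.391), and tenascin C (Tnc), a glycoprotein of healing tissue, had 0.107 to 0.143 and 0.193, 0.171, 1.78 and 0.283 (1.13, SE 0.56, adjusted p = 0.451). In all 3 genes every ADV liver lay above every LD liver. Sparc, a collagen-binding protein, was at 70.6 FPKM in A94 and at 9.89 to 17.9 in the other 7, and Thbs2 at 2.39 against 0.384 to 0.727. Tnxb, which spaces collagen fibrils in loose connective tissue, was lower than every LD liver in 3 ADV livers and highest in A94 (log2 fold change −0.27, SE 0.26).

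Some high ratios of the A94 liver to the LD mean rested on low LD means, such as 0.0305 FPKM for Ltbp2 and 0.00640 for Vcan. Some of the 41 genes had larger ratios than Ltbp2 and Vcan and are not shown here. The promoters of 3 genes with high ratios are shown for reference, Postn (65.0 times), Ltbp2 (22.7 times) and Vcan (19.4 times). Each is 300 bases long and spans the transcript start, in the direction of transcription, on build GRCm38.p6, at chr3:54360857-54361156 (plus strand), chr12:84876442-84876741 (minus strand) and chr13:89742463-89742762 (minus strand). Capitals mark matches on either strand to TATAAA, the TATA box letters, to TGANTCA, the AP-1 site, and to CAGAC, the SMAD core.
Postn: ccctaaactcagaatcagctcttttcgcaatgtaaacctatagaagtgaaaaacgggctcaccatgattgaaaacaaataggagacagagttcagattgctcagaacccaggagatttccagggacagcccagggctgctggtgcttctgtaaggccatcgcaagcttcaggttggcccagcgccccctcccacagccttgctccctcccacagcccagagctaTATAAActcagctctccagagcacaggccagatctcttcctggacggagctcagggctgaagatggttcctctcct
Ltbp2: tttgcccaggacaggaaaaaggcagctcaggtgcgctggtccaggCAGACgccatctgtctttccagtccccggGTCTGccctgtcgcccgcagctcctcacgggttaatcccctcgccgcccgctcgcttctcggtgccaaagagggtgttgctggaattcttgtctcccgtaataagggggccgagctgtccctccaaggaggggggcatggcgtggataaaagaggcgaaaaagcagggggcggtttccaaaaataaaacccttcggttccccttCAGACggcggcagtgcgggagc
Vcan: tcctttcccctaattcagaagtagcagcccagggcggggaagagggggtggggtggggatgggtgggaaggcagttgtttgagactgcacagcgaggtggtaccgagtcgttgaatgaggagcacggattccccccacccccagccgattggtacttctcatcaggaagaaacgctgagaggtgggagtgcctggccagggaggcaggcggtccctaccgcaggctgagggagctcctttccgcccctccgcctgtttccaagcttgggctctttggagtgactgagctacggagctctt
The printed Postn promoter held TATAAA starting 26 bases before the transcript start, the Ltbp2 promoter held CAGAC at 3 places, and the Vcan promoter held none of the 3 motifs. The table had 38 promoters of 29 of the 41 genes. TATAAA was in 23.7% of these 38 and in 13.6% of all 32851 promoters, TGANTCA in 10.5% and 7.81%, and CAGAC in 55.3% and 49.6%. A match describes the letters only.

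The basement membrane genes showed small differences in the liver. Nid2, the gene of nidogen-2, which links laminin and collagen IV networks, had 0.643, 0.772, 1.06 and 0.651 FPKM in LD and 1.14, 0.943, 1.70 and 1.37 in ADV (log2 fold change 0.65, SE 0.22, adjusted p = 0.363). Again 3 ADV livers lay above the LD range and A91 inside it. Nid1, the most abundant, had 1.93 to 2.59 FPKM in LD and 2.88, 2.23, 6.57 and 3.11 in ADV (0.59, SE 0.29, adjusted p = 0.451), and Hspg2 (0.12) and Agrn (0.13) had smaller values.

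All 6 crosslinkers and fibril assembly genes had a log2 fold change above 0 in the liver, where 8439 of 12835 genes did. Mgp was the one of the 6 at an unadjusted p under 0.05. Mgp had 1.72, 1.43, 2.05 and 1.96 FPKM in LD and 9.30, 1.45, 6.84 and 3.84 in A75, A91, A94 and A115. Here A75 was the highest and A91 was within the LD range, with a log2 fold change of 1.26 (SE 0.48, adjusted p = 0.384). Lox, which encodes lysyl oxidase, had 0.0233 to 0.0581 FPKM in LD and 0.157, 0.0354, 1.41 and 0.212 in ADV. The related oxidases Loxl1 and Loxl2 were at 2.10 and 2.35 FPKM in A94 and at most 0.641 and 0.764 in the other livers. Pcolce, an enhancer of procollagen processing and the most abundant of the group, had 2.96 to 3.91 FPKM in LD and 5.04, 3.31, 18.4 and 4.95 in ADV (0.81, SE 0.44, adjusted p = 0.470). Dermatopontin (Dpt) was at 17.0 FPKM in A94, 3.63 in A75 and 1.27 to 2.04 elsewhere.

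**Figure D3:**
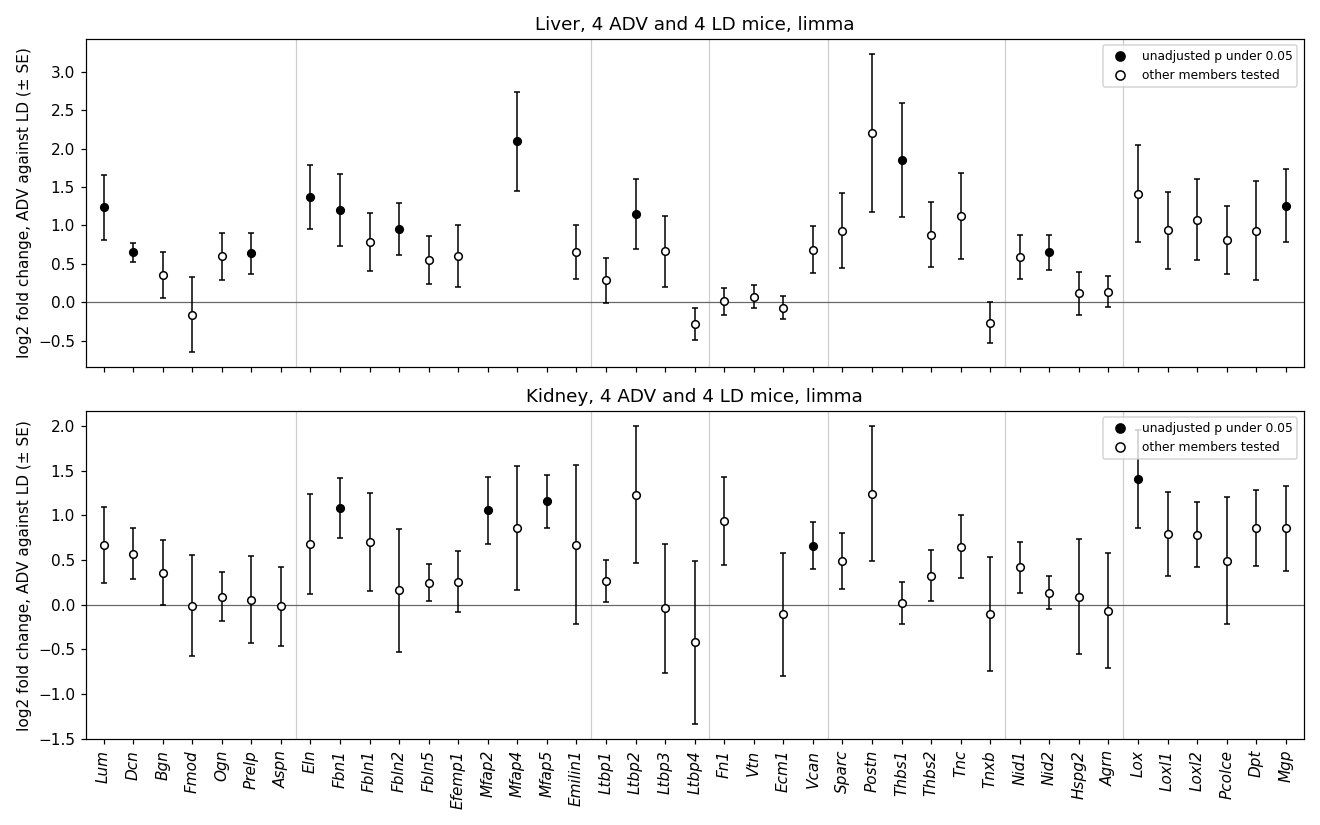
Log2 fold change of ADV against LD with its SE (limma) for each gene tested, in the liver (upper panel) and the kidney (lower panel), with filled points where the unadjusted p was under 0.05. In the liver 11 points are filled and in the kidney 5, all of them above 0, and none has an adjusted p under 0.05.

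In the kidney, no gene passed the adjusted test either, and the result turned on the A115 library. Of the 40 genes tested (Vtn was under the minimum) none had an adjusted p under 0.05 (limma and limma-voom), as for 0% of the 14452 genes tested. At an unadjusted p under 0.05, 5 were higher in ADV (Fbn1, Mfap2, Mfap5, Vcan and Lox), or 12.5% against 1.75% of all genes, and none was lower, against 1.35%. The number higher was 21 without A115, where 4269 of 14475 genes were. It was 4 without A94 (121 of 14291 genes) and 2 without A75 (151 of 14386 genes). In 2 of the 40 every ADV kidney was above every LD kidney (Mfap5 and Vcan, 5% against 0.962%), and in none below, against 1.83%. The median log2 fold change was 0.50 for the 40 genes and −0.02 for all genes. Vcan and Lox were among the 6 genes in which A115 was the highest kidney.

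The microfibril gene Mfap5 was the most separated. It had 0.257, 0.354, 0.602 and 0.609 FPKM in the kidneys of L63, L65, L86 and L104 and 1.09, 0.806, 1.39 and 1.15 in A75, A91, A94 and A115. The groups did not overlap, and the log2 fold change was 1.16 (SE 0.30, adjusted p = 0.9999, exact permutation p = 0.0286). Its partner Mfap2 had 0.691, 0.615, 1.11 and 1.29 FPKM in LD and 3.35, 2.08, 1.94 and 1.07 in ADV (1.06, SE 0.37), with only A115 inside the LD range. Fbn1 had 0.870, 0.701, 1.11 and 0.594 FPKM in LD and 2.89, 1.01, 1.95 and 1.85 in ADV (1.08, SE 0.34), with only A91 inside it. Vcan had 0.187, 0.212, 0.122 and 0.286 FPKM in LD and 0.340, 0.298, 0.323 and 0.547 in ADV (0.66, SE 0.26). All 4 ADV kidneys were above L104, the highest LD kidney, A91 by a small margin. Lox had 0.559, 0.669, 1.21 and 0.575 FPKM in LD and 1.83, 0.728, 2.49 and 5.33 in ADV (1.41, SE 0.55). A115 was the highest and A91 lay inside the LD range, and without A115 the log2 fold change was 0.97. With all mice the limma adjusted p was 0.9999 for each of these genes and for every other member tested in the kidney.

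Of the 41 genes Mgp was the most abundant in the kidney. Mgp had 180.4, 214, 375 and 225 FPKM in LD and 972, 188, 410 and 467 in A75, A91, A94 and A115 (0.86, SE 0.48). In 3 ADV kidneys it lay above the LD range and in A91 near its lower end. Bgn had 73.9 to 116 FPKM in LD and 191.5, 73.8, 147 and 66.9 in ADV (0.36, SE 0.36), Sparc had 32.0 to 58.2 and 82.1, 35.1, 69.4 and 44.8 (0.49, SE 0.31), and Efemp1 had 16.7 to 24.2 and 30.4, 11.5, 28.9 and 33.5 (0.26, SE 0.34). Lum, low in this organ, had 1.19, 3.16, 2.22 and 3.09 FPKM in LD and 3.55, 2.10, 7.04 and 3.39 in ADV (0.67, SE 0.43), and Postn was at 9.86 FPKM in A94 and between 0.575 and 1.94 in the other 7. In these 6 genes A91 did not exceed the LD mean, whereas in other abundant genes it lay above every LD kidney, as in Pcolce (47.5 against at most 36.9), Ecm1 (35.6 against 31.4), Fbln5 (21.3 against 19.5) and Agrn (13.6 against 12.9). Without A115 the log2 fold change of Efemp1 was 0.10 and that of Bgn 0.59. Without A75 it was 0.09 for Bgn, 0.47 for Mgp, 0.30 for Sparc and 0.15 for Efemp1, and without A94 it was 0.36 for Lum. A75 was the highest kidney in 18 of the 40 genes tested (45% against 28.1% of all genes) and A94 in 16 (40% against 26.2%). The 7 fibroblast markers summed to 59.4 FPKM in A75, 69.1 in A94, 51.5 in A115 and 17.4 in A91, and to between 13.2 and 25.6 in the LD kidneys, and the 8 leukocyte markers to 148 in A94 and to between 11.0 and 28.5 in the others. The smooth muscle sum was 132.5 in A75, against 36.4 to 54.0 in the LD kidneys. A75 and A94 also had the lowest proximal tubule sums (18378 and 21304, against 27351 to 40387 in LD), which were mostly Kap (16595 to 45922 FPKM in ADV). The proximal tubule markers did not share a direction, since Slc34a1 had a median of 1302 FPKM in ADV and 895 in LD and Slc5a2 of 121 and 71.1. A75 and A94 had the highest mesothelium sums (24.6 and 21.6, against 11.1 to 17.4) and stellate cell and pericyte sums (41.6 and 60.5, against 24.5 to 28.8). In A115, 2 of the 7 fibroblast markers were at 0. Their part was not tested.

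**Figure D4:**
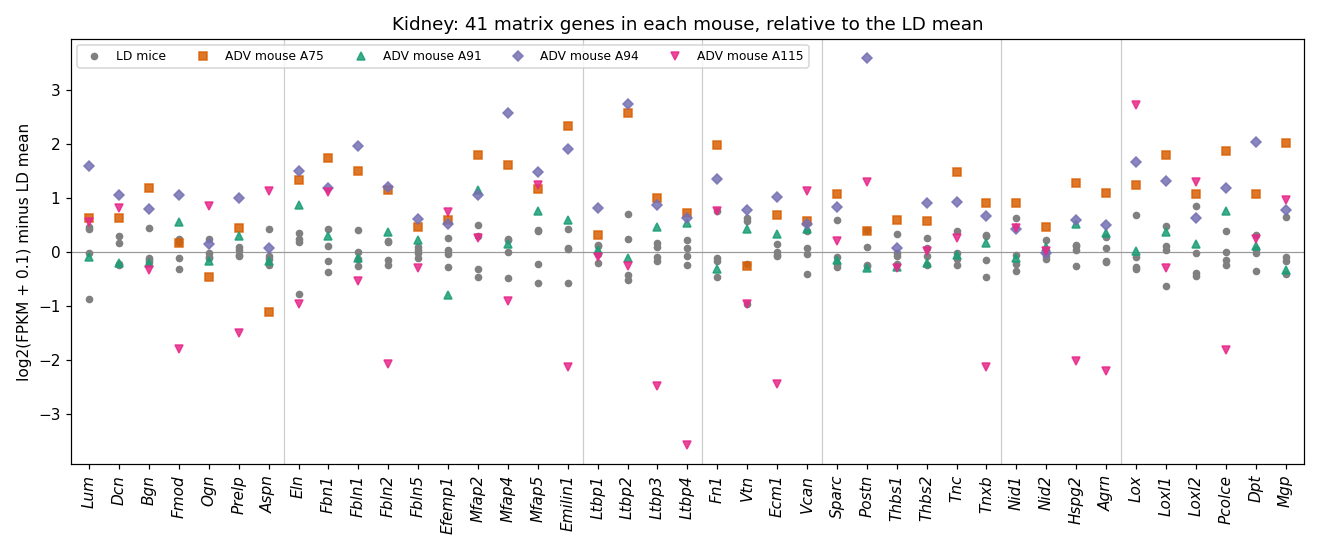
Level of each gene in the 8 kidneys as log2(FPKM + 0.1) minus the mean of the 4 LD kidneys, with symbols as for the liver. A75 (squares) and A94 (diamonds) lie mostly above the LD points, whereas A115 (downward triangles) is the lowest kidney in 17 genes and the highest in 6.

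A115 was the lowest kidney in 17 of the 40 genes (42.5% against 55.4% of all genes) and the highest in 6 (15% against 19.1%). These genes differed in the base composition of their transcripts, with overlap. Loxl2, at 51.7% GC, was among the 6, whereas Fbln5 (46.9%) and Thbs1 (49.9%) were among the 17. The 10 genes with the highest GC content (58.4% to 62.7%) had a median log2 difference of −2.17 between A115 and the median of the other 7 kidneys, and none was above 0. The 10 with the lowest GC content (34.4% to 46.9%) had a median of 0.78, and 9 were above 0. Ltbp4, at 62.7% GC, had 0.466 FPKM in A115 and 5.61 to 11.0 in the other kidneys, and Ecm1, at 58.3%, had 5.10 against 26.8 to 57.8. By contrast Aspn, at 34.4%, had 4.84 FPKM in A115 and 0.947 to 2.95 in the others, and Ogn, at 36.3%, had 39.9 against 15.8 to 25.9. Across the 41 genes Spearman's rank correlation between GC content and this difference was −0.81, and across the 13910 genes with a GC value it was −0.75, as a description of 1 library whose genes are not independent. The A115 liver showed no such relation over the 41 genes (Spearman −0.08). Exon length had a rank correlation of −0.09 with the kidney difference over the 41 genes.

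Leaving out A115 changed the kidney result. Of the 40 genes 12 then had an adjusted p under 0.05, all higher in ADV (Prelp, Eln, Fbln2, Fbln5, Mfap2, Mfap5, Emilin1, Ltbp3, Ltbp4, Ecm1, Hspg2 and Pcolce), or 30% where 16.1% of all genes were called higher and 2.68% lower. The median log2 fold change was then 0.69 for the members and 0.20 for all genes. Pcolce had 23.6 to 36.9 FPKM in the LD kidneys and 102, 47.5 and 63.6 in A75, A91 and A94, against 7.94 in A115, and its log2 fold change went from 0.50 (SE 0.71) to 1.26 (SE 0.25, adjusted p = 0.0173). Emilin1, an elastic fibre glycoprotein, had 3.03 to 6.19 FPKM in LD and 23.2, 6.92 and 17.3, against 0.967 in A115. Among the genes called, Ltbp3 turned from −0.04 to 0.78 (adjusted p = 0.0190), and Ltbp4 and Ecm1 also changed sign, from −0.42 (SE 0.92) to 0.63 and from −0.11 (SE 0.69) to 0.68, as did Agrn, from −0.07 (SE 0.64) to 0.64 (adjusted p = 0.0506). Fmod (−0.00857 to 0.59), Tnxb (−0.10 to 0.58) and Ogn (0.09 to −0.16) turned as well, without passing the adjusted test. Scaling by the median ratio as well left 7 of the 12 (Eln, Mfap2, Emilin1, Ltbp3, Ltbp4, Ecm1 and Pcolce), with 8.06% of all genes called higher and 7.9% lower.

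The 12 genes were mostly GC-rich, and the 3 other ADV kidneys also differed from the LD kidneys along GC content. The median GC content of the 12 was 58.6%, and that of the other 28 genes tested was 51.5%. Over all genes, the rank correlation between GC content and the log2 difference of a kidney from the others was 0.62 in A75, 0.55 in A91 and 0.51 in A94, and −0.47 to −0.04 in the LD kidneys. The rank correlation of GC content with the log2 fold change without A115 was 0.46 over the 40 genes and 0.65 over all genes. A GC correction was therefore added after these values had been seen, in which a smooth curve of each library's log2 difference from the gene's median against GC content was subtracted. With it no gene was called without A115, as for 0% of all genes, and none with all mice, as for 0% of all genes. The median log2 fold change of the members was then 0.42 without A115 and 0.52 with all mice, where the medians of all genes were 0.02 and −0.00115. Without A115, 36 of the 40 were above 0, and 7446 of all 13929 genes were. At an unadjusted p under 0.05 and with all 8 kidneys, 9 of the 40 were higher in ADV (Dcn, Eln, Fbn1, Mfap2, Mfap5, Vcan, Tnc, Lox and Dpt), or 22.5% against 4.15% of all genes, and none was lower, against 3.27%. Without A115, 11 of the 40 were higher, where 1388 of 13929 genes were, and none was lower, where 1228 genes were.

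**Figure D5:**
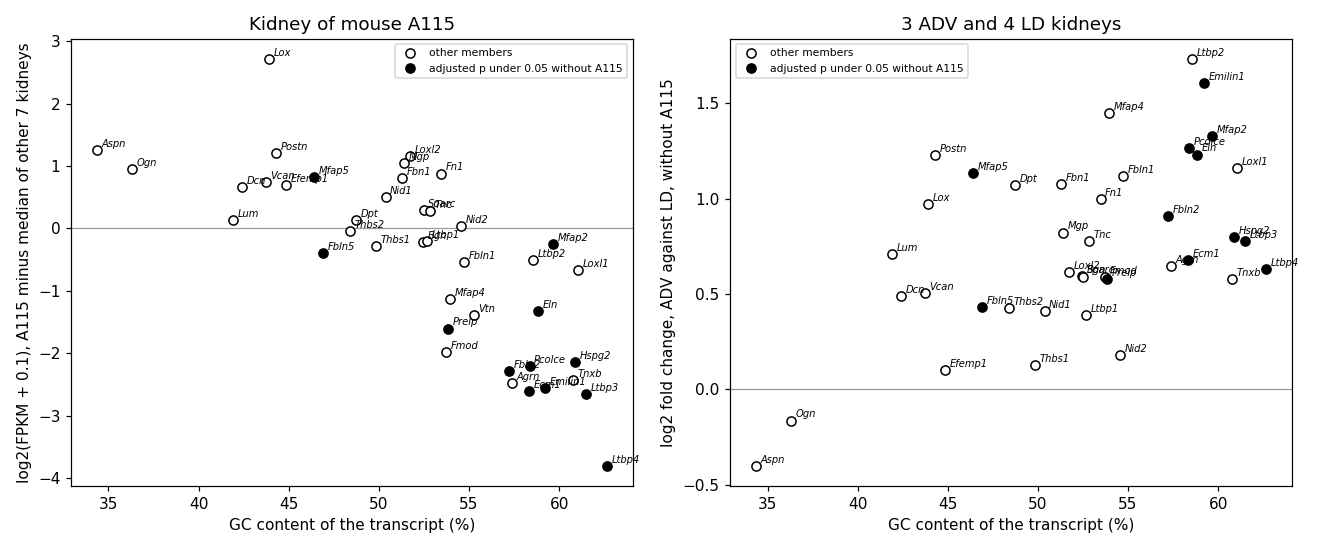
GC content of the transcript of each gene (horizontal, %) against the level in the A115 kidney minus the median of the other 7 kidneys (left, log2 scale) and against the log2 fold change of 3 ADV and 4 LD kidneys without A115 (right), with filled points for the 12 genes called without A115. Points fall from left to right in the left panel (Spearman −0.81) and climb in the right panel (Spearman 0.46).

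After this correction the A115 kidney lay above every LD kidney in 23 of the 40 genes (57.5% against 37.7% of all genes) and below in 8 (20% against 38.6%). Uncorrected, it lay above in 13 of all 41 (31.7% against 24%) and below in 17 (41.5% against 59.1%). A75 lay above in 31 (77.5% against 29.9%) and below in 2 (5% against 30.8%), A94 above in 28 (70% against 33.3%) and below in 3 (7.5% against 29.4%), and A91 above in 8 (20% against 24.1%) and below in 10 (25% against 24.1%). The median log2 difference of the 40 genes from the LD mean was 0.69 in A75, 0.57 in A94, 0.52 in A115 and −0.05 in A91. In the liver the corrected medians were 0.54 in A75, 1.53 in A94, 0.56 in A115 and −3.42e-05 in A91.

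Both organs of a mouse were also considered jointly. Without correction, 32 of the 41 genes were above every LD mouse in both the liver and the kidney of A94 (78% against 37.6% of all genes) and 30 in A75 (73.2% against 14.7%). A115 had 11 such genes (26.8% against 10.7%) and A91 had 6 (14.6% against 6.87%). The 6 of A91 were Prelp, Eln, Fbln2, Fbln5, Mfap5 and Vcan. Asked directly, the ADV effect differed between the organs for none of the 41 genes at an adjusted p under 0.05 (0% of 14379 genes) nor at an unadjusted p under 0.05 (3.73% of all genes). Without A115 none of the 41 was called, where 2.88% of all genes were. The nearest was Thbs1, with a log2 effect in the kidney lower than that in the liver by 1.83 (SE 0.86), and such errors leave sizeable differences between the organs undetected.

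Other genes of the matrix pathway were described from lists. Of 30 collagen chains 23 were tested in the liver, 6 higher and 1 lower at an unadjusted p under 0.05, with a median log2 fold change of 0.77. The lower one, Col27a1, went from 8.99 ± 1.17 to 3.01 ± 0.294 FPKM (SD, n = 4; −1.54, SE 0.13, adjusted p = 0.00609). Col15a1 went from 0.372 ± 0.119 to 0.902 ± 0.335 (adjusted p = 0.299). Of 61 other matrix glycoproteins and proteoglycans 3 of 35 tested were higher, of 25 collagen processing and crosslinking enzymes 2 of 22, and of 20 TGF-beta ligands, receptors and targets 0 of 17, with none lower and medians of 0.41, 0.37 and 0.20. Without A94 these medians were 0.14, 0.13 and −0.05, and that of the collagen chains was 0.37. Set beside the 8.65% of all genes that were higher, the glycoprotein and enzyme counts were near the background. In the kidney the corresponding counts were 7 of 26 collagen chains (median 0.71), 0 of 45 glycoproteins (0.20), 1 of 23 enzymes (0.11) and 0 of 20 TGF-beta genes (0.02), and none was lower, where 1.75% of all genes were higher. Without A115 the genes higher at an unadjusted p under 0.05 numbered 16, 19, 11 and 7 in these lists, where 4269 of 14475 genes were higher, and 0, 2, 0 and 4 were lower, where 1097 were. At an adjusted p under 0.05, 6, 6, 5 and 2 were higher, against 16.1% of all genes, and 1 glycoprotein was lower, against 2.68%. The collagen genes Col14a1 (5.51 ± 0.206 to 9.06 ± 2.48 FPKM) and Col1a2 (8.47 ± 3.31 to 21.5 ± 9.95) had the smallest unadjusted p there, and no kidney gene was called with all mice.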

How the data were processed

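Stranded poly(A) libraries of the livers and kidneys were sequenced by 2 providers. Which library came from which provider is not given in the sources used here, so that provider and condition cannot be told apart. Per the labels and the study's methods, the authors trimmed reads, aligned them to mm10 with STAR 2.5.4b, removed those with low mapping quality and used HOMER to quantify the exons of known canonical genes (UCSC). The deposited values are FPKM, named RPKM in the column headers, divided by each library's own total without further scaling, so that a few abundant transcripts can shift all other values. Multiplied by exon length and library total, 100% of the values were multiples of 0.5 fragment within 0.01 (a read of a pair adds 0.5). The study's DESeq2 test on counts was not run here.

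Genes with a mean above 0.5 on their exons, in FPM (fragments scaled to the library total as in FPKM, without the length), were tested on log2(FPKM + 0.1) with limma 3.58.1 (trend in the variance prior, R 4.3.3), 1 organ per fit, and with Benjamini-Hochberg adjustment over all genes tested. Organ levels and the organ difference of the ADV effect were fitted on all 16 libraries. Single members were also compared by an exact two-sided permutation test, with 70 ways to divide the 8 mice into equal groups. The GC content was that of the GENCODE M21 transcript with the same symbol and the nearest length, found for 41 of the 41 members and 96.2% of the genes tested in the kidney, and the GC correction used lowess with a span of 0.3. All 41 members are named, with fold change, SE and test for members at an unadjusted p under 0.05 or with groups that do not overlap, for Lum and for the most abundant member of each role group. Other genes are named only as Col27a1 or as the 2 with the smallest p per pathway list, and marker genes where a sum is described. The members, lists and tests were chosen with earlier results of these data known.

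Liver and kidney with the same number come from the same mouse. The correlation of their deviations from the group means across 12319 genes was 0.147, 0.117, 0.185, 0.0982, −0.0242, 0.334, 0.553 and 0.0423 for L63, L65, L86, L104, A75, A91, A94 and A115. P-values cover the spread between these mice. The limma procedure was tested on simulated data with 200 genes shifted by 1.5 on the log2 scale, and found 166 in the liver comparison with 12835 genes, with 8 others, and 87 in the kidney comparison with 14452 genes, with 9 others. Protein sequences were not used here.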

Additional observations from a re-analysis of the deposited data

Results flagged for a closer look

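Within each group of 4 mice, Dixon's ratio (the gap of the extreme mouse to its neighbour over the range of the group, on the log2 scale) was computed for each of the 41 genes in both organs, and 11 of 164 groups exceeded Dixon's critical value for 4 samples. Chance flags about 1 in 20 groups, so this number is near what chance gives. In the ADV livers the highest mouse was A94 for Postn (0.841), Fbln5 (0.838) and Ltbp4 (0.859). In the ADV kidneys the lowest mouse was A115 for Ltbp4 (0.958) and Ltbp3 (0.843), the latent TGF-beta binding proteins with the highest GC content, and A91 for Efemp1 (0.861). In the LD mice, L63 was the lowest liver for Eln (0.833) and Postn (0.879) and the lowest kidney for Eln (0.854), L86 was the lowest liver for Mfap2 (0.848), a gene listed there at 0 FPKM, and L86 was the highest kidney for Bgn (0.872). The cause was not tested for any of them.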

How the results depend on the processing

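The numbers of genes called over the whole table moved with a few settings. In the liver, 1 gene was called with all mice, 6 without a filter on low values, 0 with quantile normalization, 2 without A94 and A115, 0 with the GC correction without A115, and 0 to 9 when 1 mouse was left out (9 without A91). In the kidney, 0 genes were called with all mice, 2 with both organs in 1 fit, 2 in that fit with the mouse as a replicate block, 2309 without A115 after scaling by the median ratio, 672 without A94 and A115, and 0 to 2724 when 1 mouse was left out (2724 without A115). The members called in the kidney were then 7 after scaling, 2 without A94 and A115, and 0 to 12 when 1 mouse was left out, 12 without A115. The organ difference gave 3 genes without a filter, 1 with scaling by the median ratio, 1 with quantile normalization, and 0 to 415 when 1 mouse was left out. No member was called in the liver or for the organ difference under any alternative run, and the replicate block changed no call of a member. The median log2 fold change of the members ranged from 0.20 (without A94 and A115) to 0.97 (without A91) in the liver and from 0.28 (without A94) to 0.69 (without A115) in the kidney. Among the members given with full statistics, signs turned for Vtn in the liver (−0.0315 with scaling by the median ratio, −0.0608 with it without A115, −0.00309 with the GC correction without A115, −0.0160 to 0.193 when 1 mouse was left out). In the kidney they turned for Ltbp4 (0.44 without A115 after scaling, 0.64 without A94 and A115), Ecm1 (0.48, 0.50, and 0.11 with the GC correction without A115), Agrn (0.45, 0.72 and 0.13) and Efemp1 (−0.0950 and −0.108). When 1 mouse was left out, Ltbp4 ranged from −0.80 to 0.63, Ecm1 from −0.48 to 0.68 and Agrn from −0.45 to 0.64. Of the other members, Bgn (−0.00388) and Hspg2 (−0.0455) in the liver turned without A94, Fn1 (−0.0894) with scaling by the median ratio and Fmod (0.27) without A115, and further kidney members with log2 fold changes near 0 turned when 1 mouse was left out, such as Prelp (−0.26) and Fbln2 (−0.19) without A94. The cause was not tested beyond the values of GC content given above. With 4 mice per group, the simulated data gave calls for 166 and 87 of 200 shifted genes, so changes of this size or smaller can be missed. The simulated noise was drawn independently for each gene, without shifts shared by a whole library such as the A94 liver or the A115 kidney. In the liver, larger observed log2 fold changes, such as those of Postn (2.21) and Mfap4 (2.10), were not called.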
